A study of Mus musculus with 29 samples.

Results

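The 10 genes described here make, break down and control the polyamines in mouse skeletal muscle, and were taken by symbol from the 22537 rows of a gene count table. They are Odc1, Amd1, Amd2, Srm and Sms for synthesis, Smox, Sat1 and Paox for breakdown and back-conversion, and Oaz1 and Azin1 for the control of the first enzyme. The sequenced RNA was poly-A selected from the entire tibialis anterior, a fast muscle at the front of the lower leg, of male C57BL/6 mice of a National Institute on Aging colony, with no gene altered and no treatment in any group. Per the study, muscles were collected after tests of physical function, among them treadmill and voluntary wheel running. The groups were adult mice of 6 months (6m, n = 7), older mice of 24 months (24m, n = 7) and elderly mice of 28 months or more (28m, n = 8). The 24m libraries belonged to the first sequencing run and the 28m libraries to the second, and libraries of the same 7 6m mice were prepared once for each run, giving 29 libraries in all. Each old group was therefore compared with the 6m libraries of its own run.

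The polyamines putrescine, spermidine and spermine are small, positively charged molecules that bind nucleic acids and are needed for cell growth and for translation. Ornithine decarboxylase turns ornithine into putrescine, and spermidine synthase and spermine synthase then each add an aminopropyl group that comes from decarboxylated S-adenosylmethionine. Spermine is turned back into spermidine by spermine oxidase directly, or by acetylation followed by polyamine oxidase, and antizyme, which polyamines induce, sends ornithine decarboxylase to the proteasome.

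Library totals ranged from 17633475 to 33499162 counts. Levels are given per 1000000 counts of a library (CPM), scaled with edgeR's TMM factors. The summed level of 9 muscle fibre markers was between 124816 and 186704 CPM in every library, as the labelled tissue should show. In 24m replicates 2, 3, 4, 5 and 7 it was 124816 to 157686 CPM, below the first-run 6m libraries, at 160966 CPM or more. In 28m replicates 1, 5 and 6 it was 152656 to 166275 CPM, below the second-run 6m libraries, at 171147 CPM or more. The other old mice were not below the 6m libraries of their run. In 24m replicates 4, 5 and 7 and in 28m replicate 6 a list of 11 denervated fibre genes, such as acetylcholine receptor subunits, summed to 953, 1172, 348 and 662 CPM, against 58.9 to 158 CPM in the 6m libraries. 28m replicates 4, 5, 7 and 8, at 180 to 232 CPM, were also above every 6m library. A list of 5 measured macrophage and other immune genes was highest in 24m replicate 2, at 544 CPM, and in 28m replicate 7, at 510 CPM, with 75.8 to 245 CPM over the 6m libraries. These mice recur below. At 24m 0 members were called with all mice in or without any 1 of them, and at 28m the calls are given with and without replicates 6 and 7.

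Amd1 and its intronless copy Amd2 both encode S-adenosylmethionine decarboxylase, and their coding sequences of 1002 bases differ at 1 base, G796C, counted from the A of the start codon with the base of Amd1 first. The 75 coding bases around it, positions 759 to 833 in the GENCODE M21 transcripts of GRCm38, are printed to show how little separates them, with the differing base in capitals.
Amd1: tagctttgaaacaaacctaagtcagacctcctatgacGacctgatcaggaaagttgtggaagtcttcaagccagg
Amd2: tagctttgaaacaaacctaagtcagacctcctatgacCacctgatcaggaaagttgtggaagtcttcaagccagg
The reads were 75 bases long. Of the 3130 stretches of 75 bases in the Amd1 transcript, 81.9% occur also in a transcript of another gene, 2490 of them in Amd2. The count table held at most 1 count of Amd1 in any library and 0 of Amd2 in all 29. A count of 3 would have been 0.0940 to 0.171 CPM at these depths, so for the decarboxylase step no level, fold change or relation with another gene can be given. The counter used by the study keeps a read only where it has 1 place in the genome, and the part of the shared sequence in these low counts was not tested.

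The synthesis genes ahead of and behind that step had enough counts to be tested. Per kilobase of exon, Odc1 had the higher level, at 40.9 ± 22.04 CPM per kilobase (SD, n = 7) in the second 6m libraries. Sms followed at 15.4 ± 2.96 CPM per kilobase and Srm at 4.84 ± 0.565 CPM per kilobase. This order, Odc1 over Sms over Srm, was the same in the means of all 4 groups.

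Odc1 (chromosome 12, 17544794 to 17551505, plus strand, GRCm38) encodes ornithine decarboxylase, the first and most tightly regulated step. In the second run the 28m mice had a lowest, median and highest Odc1 level of 93.4, 121 and 165 CPM. The 6m mice had 70.9, 102 and 271 CPM. The 28m values lay wholly inside the 6m range, and the quasi-likelihood F test of edgeR, Benjamini-Hochberg adjusted, gave a log2 fold change of -0.19 (SE 0.24, 95% interval -0.70 to 0.33, adjusted p = 0.542). In the first run the 24m mice had 74.9, 104 and 235 CPM and the 6m mice 71.4, 115 and 272 CPM. The groups again overlapped throughout, with a log2 fold change of -0.09 (SE 0.32, edgeR, Benjamini-Hochberg adjusted p = 0.919). The 3 highest 24m values belonged to replicates 4, 5 and 7, at 235, 185 and 169 CPM, which are also the mice highest for the denervated fibre genes. Without these 3 mice, an alternative chosen after the data were seen, the log2 fold change at 24m was -0.68 (SE 0.31) and did not pass the test either, with an edgeR Benjamini-Hochberg adjusted p of 0.755. Of the 2134 stretches of 75 bases in the Odc1 transcript, 30.5% occur also in transcripts of other genes, most of them known only by Gm numbers.

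Srm (chromosome 4, 148591503 to 148594993, plus strand) encodes spermidine synthase, which makes spermidine from putrescine. Its lowest, median and highest levels were 9.01, 9.56 and 16.0 CPM at 28m. In the 6m mice of the same run they were 6.62, 7.70 and 9.16 CPM. 5 of 8 28m mice lay above every 6m mouse of that run. The first-run libraries of the 6m mice reached 9.67 CPM, in replicate 4, and 28m replicates 4, 7 and 8 lay above it. Srm rose by 0.41 on the log2 scale (SE 0.13, 95% interval 0.14 to 0.69, edgeR, Benjamini-Hochberg adjusted p = 0.0164). Short genes moved up as a class in this comparison: the median log2 fold change was 0.39 in the shortest of 4 equal classes of gene length, where Srm lies, and -0.33 in the longest. With the trend on gene length and GC content removed, the Srm value was 0.10 (SE 0.11, edgeR, Benjamini-Hochberg adjusted p = 0.481), so the call is lost. At 24m its levels were 5.77, 8.70 and 9.36 CPM against 6.26, 7.66 and 9.67 CPM at 6m, and the log2 fold change was 0.14 (SE 0.13, edgeR, Benjamini-Hochberg adjusted p = 0.624).

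Sms (chromosome X, 157443855 to 157492287, minus strand) encodes spermine synthase, which makes spermine from spermidine. The 28m levels were 23.3, 76.1 and 143 CPM (lowest, median and highest), and the 6m levels of the second run 78.4, 83.3 and 119 CPM. At 24m they were 30.99, 100.4 and 140 CPM and in the first-run 6m libraries 78.5, 93.8 and 121 CPM. Neither comparison passed the edgeR test with Benjamini-Hochberg adjustment, with log2 fold changes of -0.21 (SE 0.25, adjusted p = 0.494) and -0.08 (SE 0.24, adjusted p = 0.890). One mouse in each old group stood far below its group, 28m replicate 1 at 23.3 CPM (603 counts), where the next mouse had 64.7 CPM, and 24m replicate 7 at 30.99 CPM (956 counts), where the next had 82.4 CPM. The 28m value was -0.07 without replicate 1 and -0.38 without replicate 3, the mice with the lowest and the highest Sms, and did not pass in either fit. Of the 3643 stretches of 75 bases in its transcript, 28.2% occur also in Sms-ps, a pseudogene, or in other genes.

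**Figure D1:**
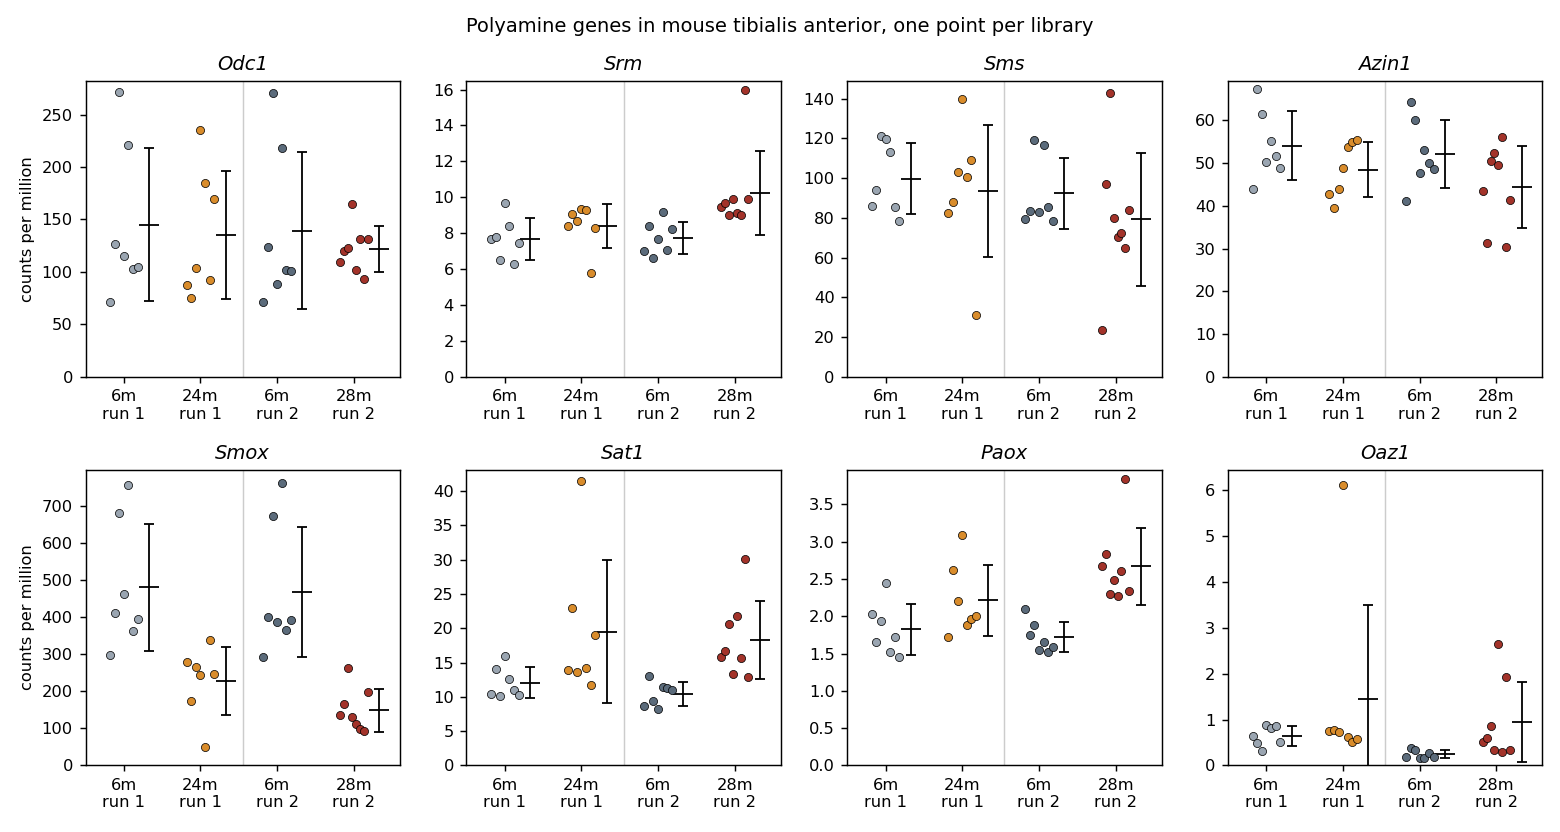
CPM of 8 polyamine genes (vertical axes, linear from 0) in the 4 groups of libraries (horizontal axes), 1 point per library, with the mean and SD as a bar beside the points (the Oaz1 bar at 24m would reach below 0 and ends at the axis). All 8 Smox points at 28m, 92.1 to 265 CPM, sit below the lowest 6m point of their run, 292 CPM.

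The 3 genes of breakdown and back-conversion all passed the test at 28m, and their directions differed: Smox fell, Sat1 and Paox rose. Counting all members, 4 of the 7 that could be tested at 28m passed at an adjusted p under 0.05, 3 upward and 1 downward, where 47.3% of all 12994 genes tested did so (24.3% higher, 22.9% lower). The share among the members is thus near that of all genes. The median log2 fold change was -0.19 over the 7 members and 0.01 over all genes tested.

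Smox (chromosome 2, 131491496 to 131525922, plus strand) encodes spermine oxidase, which converts spermine to spermidine and releases hydrogen peroxide and an aldehyde. Leaving out Amd1, Amd2 and Oaz1, whose levels could not be read, it had the highest level per kilobase of the other 7 genes in 6m muscle, at 120 ± 45.4 CPM per kilobase in the second-run libraries (n = 7), above Odc1 in 7 of 7 mice. At 28m it had 38.4 ± 14.9 CPM per kilobase and lay above Odc1 in 4 of 8 mice, so that these neighbours in the order no longer differed beyond their spread.

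The lowest, median and highest Smox levels were 92.1, 133 and 265 CPM at 28m. In the 6m mice beside them they were 292, 393 and 763 CPM. All 8 elderly mice were below all 7 adult mice, which was so for 6.66% of genes tested. Smox was 3.12-fold lower at 28m, a log2 fold change of -1.64 (SE 0.25, 95% interval -2.16 to -1.13), with a Benjamini-Hochberg adjusted p of 0.000381 in edgeR. It was the 1 member to pass both the test and an absolute log2 fold change of 1, as 5.7% of genes tested did. Against the 6m libraries of the other run the log2 fold change was -1.68, without 28m replicates 6 and 7 (chosen after the data were seen) it was -1.47, and with the trend on gene length and GC content removed it was -1.57.

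At 24m the Smox levels were 49.6, 248 and 339 CPM. The first-run 6m libraries had 298, 412 and 759 CPM. 6 of 7 24m mice were below every 6m mouse, and the exception was replicate 6 at 339 CPM. The log2 fold change was -1.07 (SE 0.32, 95% interval -1.76 to -0.38), with an unadjusted p of 0.00493 and an adjusted p of 0.254 in edgeR with Benjamini-Hochberg adjustment, so it did not pass across all genes. At 24m, 0.084% of 13103 genes tested passed, and of the 8 members tested 0 passed, with Smox and Sat1 the 2 below an unadjusted p of 0.05, as were 11.8% of all genes. DESeq2 also called 0 members there. The test of the difference between the effects at 28m and 24m did not pass (28m effect minus 24m effect -0.56, SE 0.42, 95% interval -1.41 to 0.30, edgeR, Benjamini-Hochberg adjusted p = 0.552). That interval leaves room for effects of the same size and for a fall more than 1 log2 unit deeper at 28m. The fit took the 6m libraries of both runs as independent, though they come from the same 7 mice, so the interval ignores this pairing.

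**Figure D2:**
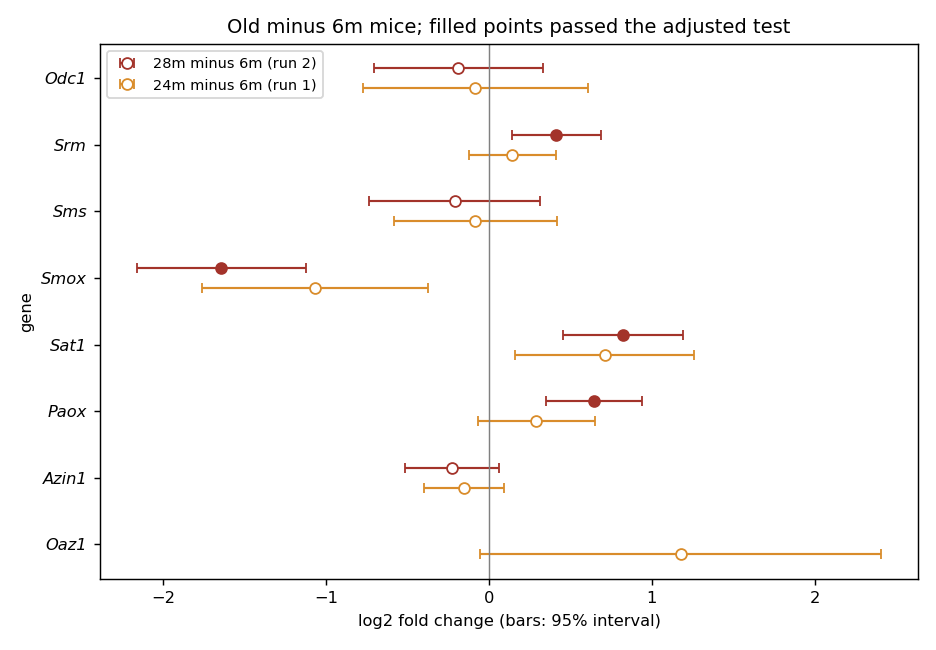
Log2 fold change of each tested member with its 95% interval (horizontal axis) for 28m against 6m of the second run (red) and 24m against 6m of the first run (orange), with filled points for an adjusted p under 0.05. Smox lies at -1.64 and -1.07, Sat1 at 0.82 and 0.71, and 4 points are filled, all of them at 28m (Oaz1 was under the filter at 28m and has no red point).

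Sat1 (chromosome X, 155213132 to 155216449, minus strand) encodes spermidine/spermine N1-acetyltransferase, the inducible enzyme that tags polyamines for export or oxidation. Its lowest, median and highest levels were 12.9, 16.2 and 30.1 CPM at 28m. The 6m mice of that run had 8.27, 10.96 and 13.04 CPM. 7 of 8 28m mice lay above every 6m mouse of that run, and replicate 8, at 12.9 CPM, was just inside the 6m range. The first-run library of 6m replicate 4, at 15.9 CPM, lay above 28m replicates 1, 4, 6 and 8. Sat1 rose by 0.82 on the log2 scale (SE 0.18, 95% interval 0.45 to 1.19, edgeR, Benjamini-Hochberg adjusted p = 0.00212). It too belongs to the shortest class of genes, and with the length and GC trend removed it still passed, at 0.55 (adjusted p = 0.00830 in edgeR with Benjamini-Hochberg adjustment).

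At 24m Sat1 had 11.7, 14.2 and 41.5 CPM against 10.2, 10.9 and 15.9 CPM at 6m. 3 of 7 24m mice lay above every 6m mouse, and they were replicates 4, 2 and 7 at 41.5, 22.9 and 18.96 CPM. The log2 fold change of 0.71 (SE 0.26, edgeR, Benjamini-Hochberg adjusted p = 0.335) was 0.40 without replicate 4, the mouse with a denervated fibre sum of 953 CPM. The 3 mice highest for Sat1 were also the 3 highest for the immune gene sum at both old ages. At 24m they had immune sums of 236, 544 and 348 CPM (replicates 4, 2 and 7), and at 28m replicates 7, 5 and 3, with 30.1, 21.9 and 20.6 CPM of Sat1, had 510, 171 and 194 CPM. 6m replicate 2, with immune sums of 245 and 239 CPM in its 2 libraries, was above 24m replicate 4 and 28m replicates 5 and 3 for that sum but below them for Sat1, at 14.1 and 13.04 CPM. The part of immune cells in the Sat1 values was not tested. Without 28m replicates 6 and 7 the Sat1 rise was 0.70 (edgeR, Benjamini-Hochberg adjusted p = 0.00316). In whole muscle, fewer cells of a type and less RNA per cell cannot be told apart.

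Paox (chromosome 7, 140115799 to 140137224, plus strand) encodes the peroxisomal polyamine oxidase, which acts on acetylated polyamines. It was a low gene, with 48 to 106 counts per 28m library and 30 to 46 per 6m library of that run. Its levels were 2.27, 2.55 and 3.85 CPM at 28m and 1.52, 1.65 and 2.10 CPM at 6m, lowest, median and highest. All 8 28m mice lay above all 7 6m mice of that run, as in 5.65% of genes tested. The first-run library of 6m replicate 4, at 2.44 CPM, lay above 28m replicates 3, 5 and 8, at 2.30, 2.27 and 2.34 CPM. Paox rose by 0.64 (log2, SE 0.14, edgeR, Benjamini-Hochberg adjusted p = 0.00233). The value was 0.75 with the length and GC trend removed. At 24m the levels were 1.73, 2.01 and 3.09 CPM against 1.45, 1.72 and 2.44 CPM, with a log2 fold change of 0.29 (SE 0.17, edgeR, Benjamini-Hochberg adjusted p = 0.484), or 0.19 without 24m replicate 4. Stretches of 75 bases shared with other genes made up 26.7% of its transcript, mostly with Gm19680.

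The balance of the genes within a library needs no scaling between libraries. In the 6m mice of the second run Smox exceeded Odc1 by 1.83 ± 0.269 log2 units of counts (SD, n = 7), with a range of 1.32 to 2.13. At 28m the difference was 0.23 ± 0.505 (n = 8), from -0.44 to 1.11, so the groups did not overlap. In the first run it was 1.80 ± 0.245 at 6m and 0.69 ± 1.30 at 24m, where the lowest mouse, at -1.90, was replicate 5. Without this mouse the 24m mean was 1.12 ± 0.695 (n = 6), and without replicates 4, 5 and 7 it was 1.53 ± 0.299 (n = 4), with a range of 1.22 to 1.87 inside that of the 6m mice, 1.33 to 2.06, but for its lowest mouse. Without 28m replicates 6 and 7 the 28m mean was 0.38 ± 0.478 (n = 6), and its highest mouse, at 1.11, was still below every 6m mouse. Smox over Sat1 went from 5.43 ± 0.510 at 6m to 2.995 ± 0.755 at 28m, or 3.28 ± 0.539 without 28m replicates 6 and 7. These ratios restate the gene values above and were not tested. How often the ratio of other pairs of genes parts the groups was not computed.

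Among the adult mice Odc1 and Smox were high together. 6m replicates 3 and 5 had Odc1 levels of 272 and 221 CPM and Smox levels of 681 and 759 CPM in the first run, above the other 5 mice for both genes. Over the 7 adult mice, each as the mean of its 2 libraries, Pearson's r of log2 CPM was 0.96 (exact permutation p = 0.00694, 0.0625 after Benjamini-Hochberg adjustment over 9 relations) and Spearman's rho was 0.75 (exact permutation p = 0.0663, adjusted 0.198). Without the 2 mice farthest from the median of Odc1, replicates 3 and 5, r was 0.87. Within the 8 28m mice r was 0.30 (exact permutation p = 0.470, adjusted 0.639) and rho 0.29, with r at 0.29 without replicates 4 and 7. Within the 7 24m mice r was -0.36 (exact permutation p = 0.497, adjusted 0.639) and rho -0.36, and without replicates 4 and 5 the sign turned, at 0.20. None of the 9 relations, which also set Smox beside Sat1 and Odc1 beside Azin1 at each age, passed after adjustment, and whether they differ between ages was not tested.

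**Figure D3:**
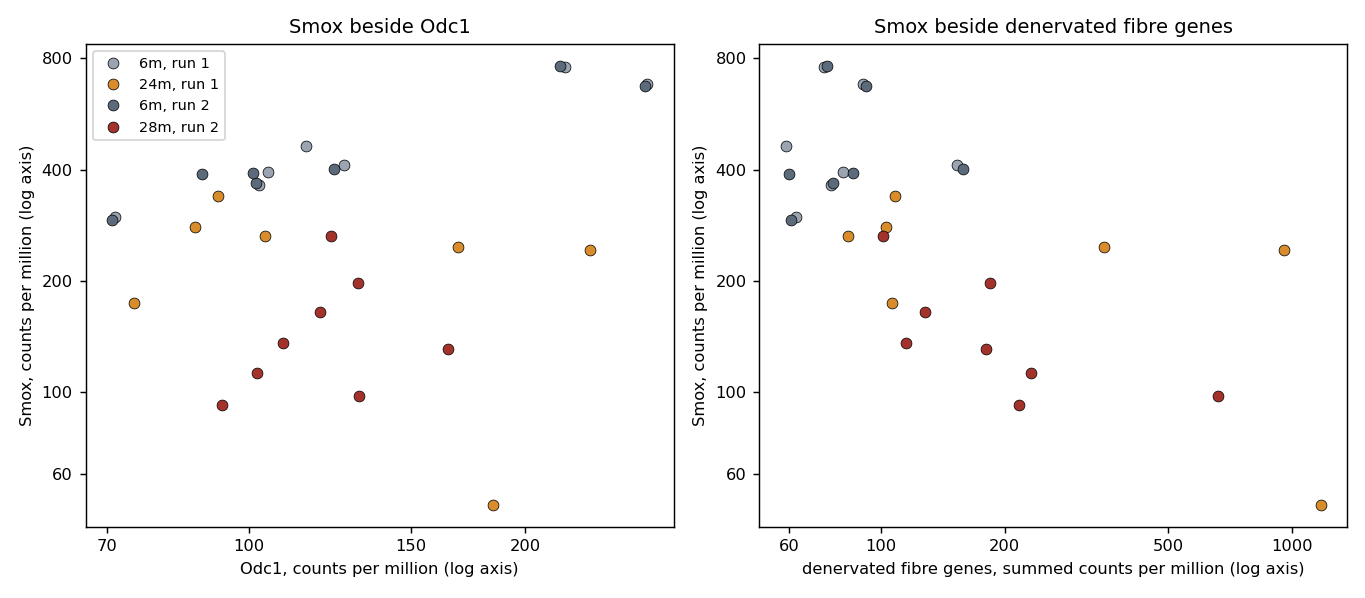
Smox in CPM (vertical axes, log) against Odc1 (left) and against the summed level of 11 denervated fibre genes (right), both in CPM on log axes, 1 point per library coloured by group. On the left the 6m mice run upward from 292 to 763 CPM of Smox with rising Odc1, while the 28m points lie at 265 CPM or less; on the right 24m replicate 5 sits at 49.6 CPM of Smox and 1172 CPM of denervated fibre genes.

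Smox was lowest of all libraries in 24m replicate 5, at 49.6 CPM, which was the mouse with the highest denervated fibre sum, 1172 CPM. 24m replicate 4, with the next highest sum, had 243 CPM of Smox, close to the 24m median. 6 of the 11 denervated fibre genes rose at 28m, where 24.3% of all genes did, and the median log2 fold change of the list was 1.60. At 24m, where 0.084% of all genes were called, 0 of the 11 passed and the median was 2.41. 4 of 4 endothelial genes and 3 of 5 fibroblast genes fell at 28m, where 22.9% of all genes did, with an endothelial sum of 146 to 246 CPM at 28m against 308 to 334 CPM in the 6m libraries of that run. The first-run libraries of those mice had 212 to 338 CPM, and the lowest of them, replicate 4, was the 1 to lie within the 28m range. None of the 5 tested immune genes passed at 28m. The part of these cell types in the Smox, Sat1 and Paox values was not tested. Without 24m replicates 4, 5 and 7 the Smox value at 24m was -0.85 (SE 0.26, edgeR, Benjamini-Hochberg adjusted p = 0.449), and without 28m replicates 6 and 7 all 4 members called at 28m were called again.

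By deviation from the group mean of log2 CPM over the 29 libraries, the genes most like Smox were Rxrg, a retinoid X receptor gene (Pearson's r 0.89), Hmga2-ps1 (0.86), Gm4980 (0.86), Tmpo (0.85) and Cd24a (0.85). The 6m mice enter this measure with 2 libraries each, and without 24m replicate 5 the values were 0.79, 0.84, 0.74, 0.79 and 0.78. These correlations describe the mice and carry no test.

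RefSeq promoter windows of GRCm38.p6, from 250 bases before to 50 after a start site, were matched for 8 of the 10 genes. Srm and Azin1 had no entry. Sequence before the RefSeq start of Smox, the gene that fell furthest, and of Sat1, the gene that rose furthest among those called, is printed with every GC box core, GGGCGG on either strand, in capitals. The Smox stretch is chromosome 2, 131491654 to 131491763, plus strand, and the Sat1 stretch chromosome X, 155216450 to 155216699, minus strand. Each is the longest run of those bases outside the exons of GENCODE M21, whose Smox gene starts ahead of the RefSeq start, so the Smox stretch lies inside the gene as placed above and holds 2 of the 6 matches of its window.
Smox: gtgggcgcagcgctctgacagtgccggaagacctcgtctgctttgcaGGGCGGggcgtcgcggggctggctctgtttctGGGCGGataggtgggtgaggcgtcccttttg
Sat1: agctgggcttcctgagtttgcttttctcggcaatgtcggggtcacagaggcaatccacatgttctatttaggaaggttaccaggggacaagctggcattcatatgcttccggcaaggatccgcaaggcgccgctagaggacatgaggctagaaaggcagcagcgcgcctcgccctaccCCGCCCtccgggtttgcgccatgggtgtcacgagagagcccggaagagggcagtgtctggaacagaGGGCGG
The whole Smox window of 300 bases held 6 GGGCGG matches, a number reached in 1.35% of the 32851 promoter windows of that length. Odc1 and 1 of the 2 Sms windows held 4, a number reached in 5.49% of windows, both Paox windows held 3, Sat1 2 and Amd1 1. The other Sms window, Amd2 and Oaz1 held 0, and 35.7% of all windows held at least 1. Of the other letters searched on both strands, CACGTG (in 7.15% of all windows) was in 1 Sms window, CCAAT (37.4%) in Amd2, Oaz1 and Sms, and TATAAA (13.6%) in Oaz1. A match describes these letters and is no shown binding site.

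The regulators differed in how far they could be read. Azin1 (chromosome 15, 38487427 to 38519266, minus strand) encodes antizyme inhibitor, an inactive relative of ornithine decarboxylase that binds antizyme away from it. Its levels were 30.4, 46.5 and 56.0 CPM at 28m and 41.0, 50.0 and 64.3 CPM at 6m. The groups overlapped in 6 of 8 28m mice, and the log2 fold change was -0.23 (SE 0.14, 95% interval -0.52 to 0.06, edgeR, Benjamini-Hochberg adjusted p = 0.183). At 24m the levels were 39.5, 48.8 and 55.3 CPM against 43.8, 51.6 and 67.3 CPM, with a log2 fold change of -0.15 (SE 0.12, edgeR, Benjamini-Hochberg adjusted p = 0.579).

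Oaz1 (chromosome 10, 80826656 to 80829290, plus strand) encodes antizyme 1, whose full translation needs a ribosomal frameshift that polyamines promote. Its row held 3 to 184 counts per library, and 47.5% of the 970 stretches of 75 bases in its transcript occur also in Oaz1-ps, so its values are uncertain as a level of antizyme mRNA. At 28m it had 0.295, 0.549 and 2.64 CPM, and the 6m mice of that run 0.155, 0.193 and 0.384 CPM. 5 of 8 28m mice lay above every 6m mouse. The gene was under the filter on low counts there, and an exact permutation test of log2 CPM gave a difference of 1.31 (two-sided p = 0.00482 over 6435 assignments). Fitted without the filter, edgeR called it too, at 1.94 (SE 0.51, Benjamini-Hochberg adjusted p = 0.00820). The 6m side of that difference moved with the run: in the same 7 mice Oaz1 was 1.16 log2 units lower in the second run than in the first (exact permutation p = 0.00175, 0.0313 when paired by mouse), lower in 6 of 7 mice. Fitted across all genes without the filter, that difference between the runs did not pass, at -1.39 (SE 0.29, edgeR, Benjamini-Hochberg adjusted p = 0.832, and 0.620 with the mouse as a block). Against the first-run 6m libraries the 28m log2 fold change was 0.57 (SE 0.47, edgeR, Benjamini-Hochberg adjusted p = 0.365), so the Oaz1 difference depends on which preparation of the adult mice it is set against.

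At 24m Oaz1 had 0.513, 0.735 and 6.11 CPM against 0.316, 0.652 and 0.884 CPM in the first-run 6m libraries. 1 of 7 24m mice, replicate 4 with 184 counts, lay above every 6m mouse. The log2 fold change of 1.18 (SE 0.58, edgeR, Benjamini-Hochberg adjusted p = 0.438) became 0.04 without it. Against the second-run 6m libraries it was 2.57 (SE 0.65, adjusted p = 0.0860 by the same test), so the 24m value too depends on the preparation of the adult mice. The difference between the 28m and 24m effects of Oaz1 was 0.78 (SE 0.82, edgeR, Benjamini-Hochberg adjusted p = 0.670), and without this mouse 1.94 (SE 0.60, adjusted p = 0.0415 by the same test), when 1657 genes passed in all. With every mouse in, 0 of 13455 genes passed that test of the difference, 0 of the 8 members among them, while 12% of genes and 0 members were below an unadjusted p of 0.05.

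The repeat preparation shows how far a member's value can be read in 1 mouse. Leaving out replicate 4, the first and second library of a 6m mouse differed by at most 2.67% for Smox, 3.61% for Odc1, 6.38% for Azin1, 11.3% for Sms, 11.5% for Paox, 13.1% for Srm and 17.7% for Sat1. In replicate 4 the differences reached 15.9% for Smox, 20.4% for Srm, 22.9% for Odc1, 30.6% for Sms, 36.6% for Paox and 48.1% for Sat1. The spread of Smox and Odc1 between adult mice was thus far wider than between libraries of a mouse. With the mouse as a block, the second run differed from the first by -0.05 for Smox (SE 0.04, log2) and -0.20 for Sat1 (SE 0.11). Odc1 and Azin1 were lower in the second run in 7 of 7 mice, by small amounts, at -0.07 (SE 0.05) and -0.05 (SE 0.03). None of the 7 members tested passed between the runs by edgeR with Benjamini-Hochberg adjustment, with or without the block, nor did any of 12884 genes (0%), of which 2.77% and 0 members were below an unadjusted p of 0.05 without it.

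**Figure D4:**
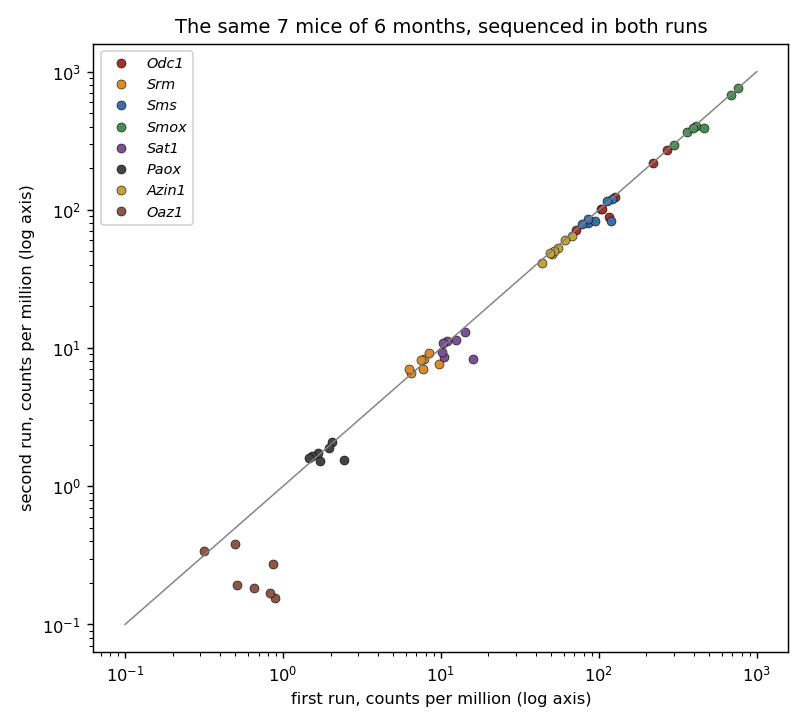
CPM in the second run (vertical axis, log) against the first run (horizontal axis, log) for the 7 6m mice and 8 genes, 1 point per mouse and gene, with the line of equal values. Smox and Odc1 lie close to the line, and Oaz1 lies below it in 6 of 7 mice.

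Around these enzymes, 42 further genes of ornithine supply, antizymes, acetylation, hypusination, transport, S-adenosylmethionine supply and upstream control were listed, of which 31 could be tested. At 28m 16 of the 31 passed by edgeR with Benjamini-Hochberg adjustment, 11 higher and 5 lower, against the 47.3% of all genes, with a median log2 fold change of 0.17. Of these 16 genes 10 were called again with the length and GC trend removed, where 38% of all genes passed. Against the 6m libraries of the other run 9 were called again, where 23% of all genes passed. Without 28m replicates 6 and 7 it was 15, where 45.1% of all genes passed. The 6 called again both with the trend removed and against the other run were Oaz3, Dhps, Eif5a, Slc47a1, Gnmt and Myc. At 24m 0 of 31 passed and their median was 0.04, against 0.03 over all genes; Myc was the nearest of those called at 28m, at 0.89 (adjusted p = 0.168).

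Hypusination uses spermidine to modify a lysine of the translation factor eIF5A, which it activates. Of its 4 genes 3 rose at 28m, where 24.3% of all genes did. Eif5a itself had 343 to 488 CPM at 28m and 278 to 302 CPM at 6m. All 8 28m mice thus lay above the 6m mice of that run, as in 5.65% of genes tested. Eif5a rose by 0.51 on the log2 scale (SE 0.09, edgeR, Benjamini-Hochberg adjusted p = 0.000679). Dhps, deoxyhypusine synthase, rose by 0.56 (SE 0.10). Its 21.0 to 35.8 CPM lay above the 17.8 to 20.5 CPM of the 6m mice, again as in 5.65% of genes. Dohh, the hydroxylase of the second step, rose by 0.55 (SE 0.13), with 6 of 8 mice beyond the 6m range of that run. Eif5a2 did not pass, at -0.29 (SE 0.24). The 3 genes called belong to the shortest length class, and with the length and GC trend removed they passed at 0.31 (Eif5a), 0.35 (Dhps) and 0.34 (Dohh). The first-run libraries of the same 6m mice reached 418 CPM of Eif5a and 29.6 CPM of Dhps, both in replicate 4, so that 3 of 8 28m mice lay above all of them for each gene. Against those libraries Eif5a was at 0.40 and Dhps at 0.42 and both passed, while Dohh, at 0.42, did not (edgeR, Benjamini-Hochberg adjusted p = 0.0686).

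Of 3 further antizyme system genes 2 could be tested, and of 3 further genes of acetylation and breakdown 1; these 3 genes rose, as did 24.3% of all genes. Oaz2, antizyme 2, had 111 to 167 CPM at 28m and 87.6 to 116 CPM at 6m and rose by 0.43 (log2, SE 0.10, edgeR, Benjamini-Hochberg adjusted p = 0.00259). Oaz3, the antizyme known from testis, rose by 0.84 (SE 0.19) from 6 to 19 counts per 6m library to 19 to 31 per 28m library. Sat2, a relative of Sat1 whose main substrate is not a polyamine, rose by 0.47 (SE 0.14). With the length and GC trend removed Sat2 was at -0.01 (edgeR, Benjamini-Hochberg adjusted p = 0.971), while Oaz2 and Oaz3 passed. Against the other run's 6m libraries Oaz2, at 0.29, did not pass (adjusted p = 0.0642 by the same test).

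Of the 3 tested genes that feed ornithine in or out, Oat, ornithine aminotransferase, rose by 0.46 (log2, SE 0.11). All 8 28m mice, 226 to 364 CPM, were above the second-run 6m libraries, 193 to 218 CPM, as in 5.65% of genes tested. The first-run libraries of those 6m mice reached 279 CPM. Slc25a15, the mitochondrial ornithine carrier, fell by 0.25 (SE 0.07), with all 8 28m mice below the 6m mice, as in 6.66% of genes tested. Aldh18a1, which makes the precursor of ornithine and proline, fell by 0.61 (SE 0.22, edgeR, Benjamini-Hochberg adjusted p = 0.0301). With the length and GC trend removed Oat, at 0.17, and Slc25a15, at -0.09, no longer passed, and against the other run's 6m libraries Aldh18a1, at -0.57, did not.

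Among 7 tested transport genes 3 fell (42.9%) and 0 rose. Of all genes 22.9% fell and 24.3% rose, 47.3% called in either direction. The 3 that fell were Atp13a2, a lysosomal polyamine exporter, at -0.48 (log2, SE 0.13), Slc47a1, a cation extruder, at -0.47 (SE 0.11), and Gpc1, a heparan sulphate proteoglycan that takes part in polyamine uptake, at -0.37 (SE 0.14). Only Slc47a1 of these 3 passed again with the length and GC trend removed (-0.54) and against the other run's 6m libraries (-0.49). With the trend removed Cav1, the caveolin gene, passed as lower (-0.33) and Atp13a3, a polyamine transporter gene, as higher (0.78). The Atp13a3 value rests largely on 28m replicate 6, at 179 CPM where the next mouse had 74.8 CPM, and without replicates 6 and 7 it was 0.15 in place of 0.50 in the fit with the trend left in. Without 28m replicates 6 and 7 Slc3a2, an amino acid transporter subunit, passed as higher (0.33). Of 11 genes of S-adenosylmethionine supply and methylthioadenosine salvage 3 rose (27.3%, near the 24.3% of all genes): Gnmt, glycine N-methyltransferase, a consumer of S-adenosylmethionine, by 1.59 (SE 0.27) from 9 to 19 counts per 6m library to 30 to 102 per 28m library, Mat2b, a regulatory subunit of its synthetase, by 0.38 (SE 0.12), and Mri1, a salvage enzyme, by 0.34 (SE 0.13). Gnmt passed with the trend removed, at 1.15, and against the other run, at 1.39, whereas Mat2b lost its call against the other run (0.21) and Mri1 under both (0.26 and 0.22) and without 28m replicates 6 and 7 (0.32). Called only with the trend removed were Ahcyl2 (0.28), Apip (-0.25) and Adi1 (-0.39), each of which had the opposite sign before. Of the 3 upstream regulators Myc, a known activator of Odc1, rose by 0.95 (SE 0.26, edgeR, Benjamini-Hochberg adjusted p = 0.00766), with 3.02 to 9.53 CPM at 28m against 2.33 to 5.84 CPM.

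**Figure D5:**
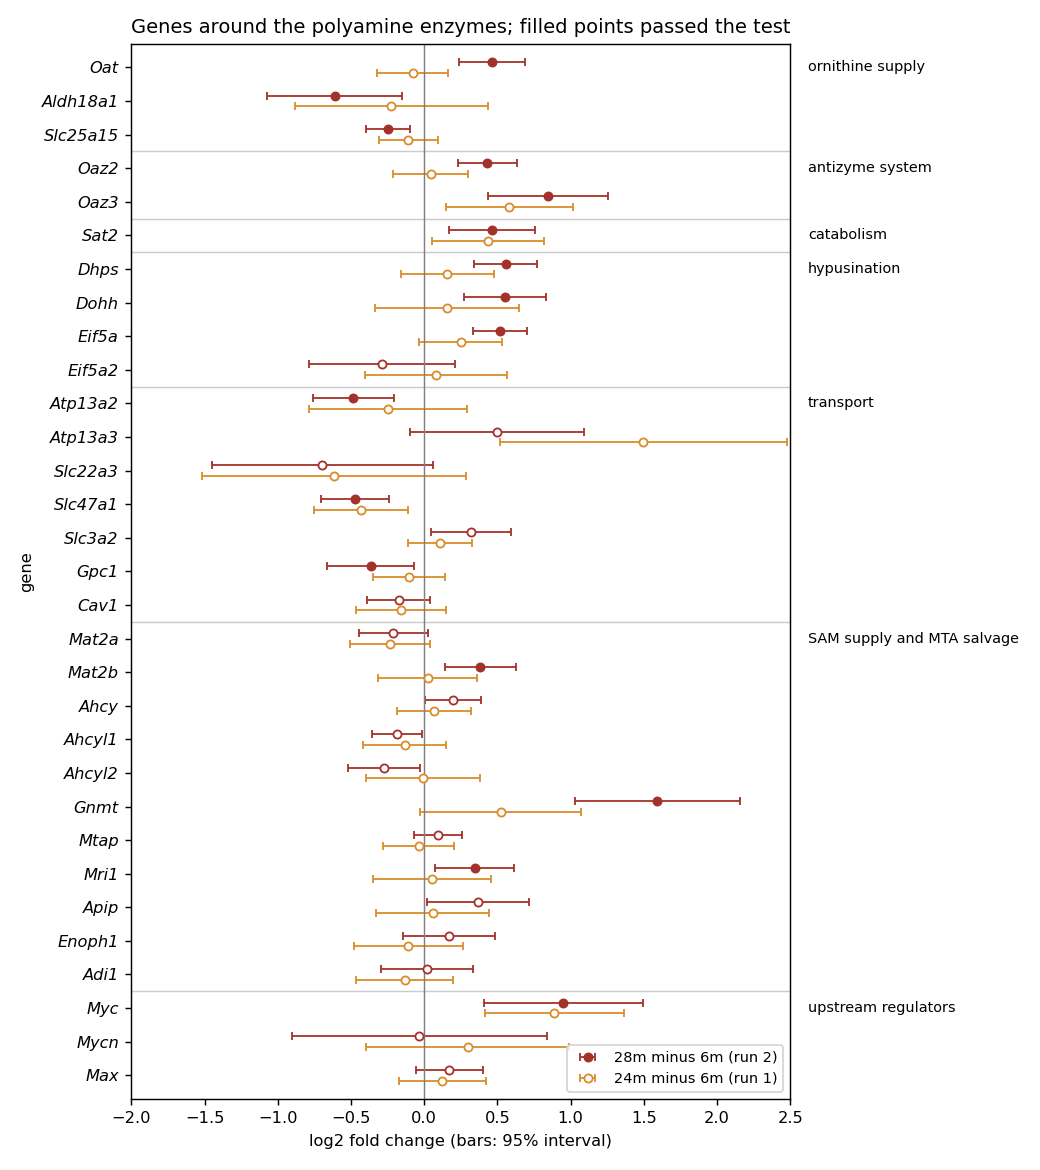
Log2 fold change with its 95% interval (horizontal axis) of the 31 tested genes around the polyamine enzymes, in groups by function, at 28m (red) and 24m (orange), with filled points for an adjusted p under 0.05. The filled points, 11 to the right of 0 and 5 to the left, all belong to 28m, and Gnmt at 1.59 lies farthest out among them.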

How the data were processed

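The authors aligned single-end reads of 75 bases to mm10 with STAR 2.5.4b after bcl2fastq 2.20, per the submitters' processing notes, and deposited raw read counts per gene made with STAR's GeneCounts option; the notes also name DESeq2 1.22.2 in R 3.5.1. The strand setting is not given in the sources used here. The 10 members and all gene lists were chosen with earlier results of these data known. The genes named by rule are the members, the 5 genes most like Smox and the listed pathway genes that passed in either comparison; the other genes named were picked after their values were seen. Of the genes first listed, 2 are not reported here.

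Counts were tested with edgeR 4.0.16 in R 4.3.3 (filterByExpr, TMM, quasi-likelihood F test, two-sided), with Benjamini-Hochberg adjustment over all genes tested, at a threshold of 0.05. Standard errors were taken from the log2 fold change and its F statistic. CPM were scaled by TMM over all 29 libraries, and log2 CPM had a prior count of 2. Each old group was fitted with the 6m libraries of its own run, and the difference of effects over all 29. In that fit both libraries of a 6m mouse were taken as independent. DESeq2 1.42.0, limma 3.58.1 (voom), other scalings and filters, the other run's 6m libraries, a length and GC correction and leaving out each replicate were alternatives; for the pathway genes and ratios they were chosen after the data were seen. The fits by edgeR, limma-voom and DESeq2 and the length and GC correction were tested on simulated counts. The other steps were not.

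The 6m libraries of a mouse are paired by its label: their deviations from the group means correlated by 0.216 to 0.836 over the 7 mice. Gene positions and exonic lengths came from GENCODE M21 (GRCm38), matched by symbol or synonym for all but 439 of the 22537 rows. Depth was 17633475 to 33499162 counts per library, and a limit of 3 counts covers counting error only.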

Additional observations from a re-analysis of the deposited data

Results flagged for a closer look

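In 7 of 32 groups of a member's values, 1 mouse stood apart from the rest of its group by Dixon's test of log2 CPM at the 95% level, which chance alone passes in about 1 group in 20. Spermine synthase had 2 of these cases: 24m replicate 7 had 30.99 CPM of Sms where the next mouse had 82.4 CPM, and 28m replicate 1 had 23.3 CPM where the next had 64.7 CPM. Smox was at 49.6 CPM in 24m replicate 5, with the next mouse at 174 CPM. Oaz1 was at 6.11 CPM in 24m replicate 4, with the next mouse at 0.777 CPM. Srm was at 16.0 CPM in 28m replicate 7, with the next at 9.93 CPM, and Paox was highest in the same mouse, at 3.85 CPM, with the next at 2.84 CPM. Srm was at 5.77 CPM in 24m replicate 6, with the next at 8.27 CPM. On the CPM scale, tried after the data were seen, 4 of these 7 cases stood apart, those of Oaz1, Srm and Paox. The Sms and Smox cases did not, and Sat1 in 24m replicate 4, at 41.5 CPM, did.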

How the results depend on the processing

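The Smox, Sat1 and Paox calls at 28m held under each of the 11 other settings and in each of the 15 fits without 1 replicate. Among these settings, summing Amd1 and Amd2 could not move the calls, because the summed row stayed under the filter on low counts. Srm lost its call with the length and GC trend removed (0.10). Members called at 28m numbered 3 to 5 over the settings against 4, and the fifth was Oaz1. At 24m 0 members were called under every setting, and the lowest adjusted p of Smox was 0.0633 (DESeq2).

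Members called for the difference of the 28m and 24m effects ranged from 0 to 1 without 1 replicate, the 1 being Oaz1 without 24m replicate 4. Among the members, directions turned only for values that did not pass. Sms at 24m was 0.027 against the other run's 6m libraries. For the difference of effects Odc1 was 0.038 by limma-voom without a block and 0.039 with the mouse as replicate block. For the same difference Sat1 was -0.0053 and Azin1 0.017 with the length and GC trend removed. Without 1 replicate the ranges that crossed 0 were -0.30 to 0.059 for Odc1 at 28m, -0.28 to 0.15 for Odc1 and -0.21 to 0.075 for Sms at 24m. For the difference of effects they were -0.32 to 0.16 (Odc1), -0.29 to 0.028 (Sms), -0.016 to 0.45 (Sat1) and -0.13 to 0.0010 (Azin1), and between the 6m runs -0.12 to 0.019 (Paox) and -0.017 to 0.079 (Srm). The cause was not tested. The block changed no call.

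Over all genes, calls at 28m were 6140, or 2981 against the other run's 6m libraries. At 24m they were 11, or 215 by DESeq2, 152 with the dispersion taken over all libraries, 46 against the other run, 18 with the length and GC trend removed, 4 with at least 10 counts in every library and 4 to 30 without 1 replicate. Without 24m replicate 4 the difference of effects went from 0 to 1657 genes. Counts limit Amd1, Amd2, Oaz1 and Paox. Relations with Amd1 or Amd2 could not be computed.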

Other observations

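The low Sms values of 24m replicate 7 and 28m replicate 1 were not matched in size by the genes beside it. Within 1000000 bases of Sms on chromosome X, 6 other genes averaged at least 10 counts per library. In 24m replicate 7 Sms stood at 0.304 of the median of the other mice of its group, while Smpx stood at 0.771 and Mbtps2 at 0.903. In 28m replicate 1 Sms stood at 0.293, Smpx at 0.829 and Mbtps2 at 1.003. Phex, with 15 counts in each, was at 0.467 and 0.635, and below every other mouse of its group in both. These genes were chosen after the values were seen, and no test was made.

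Atp13a3, a gene for an endosomal polyamine transporter, did not pass in either comparison, save at 28m with the length and GC trend removed, but spread widely between old mice. It was at 424 and 206 CPM in 24m replicates 5 and 4 and at 179 CPM in 28m replicate 6, against 36.2 to 57.9 CPM over the 6m libraries, and these are the 3 mice with the highest denervated fibre sums. Agmat, whose enzyme is named for making putrescine from agmatine, had 77, 30 and 31 counts in the libraries of 24m replicates 4 and 5 and 28m replicate 6, and at most 12 in any other library. Both genes were picked after their values were seen.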
